A study of Homo sapiens with 12 samples.

Results

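The factors that start protein synthesis, the eukaryotic initiation factors (eIFs), and the kinases that phosphorylate eIF2 were measured in HCC38 cells, a triple-negative breast cancer cell line. The members were the genes whose symbol in the array annotation begins with EIF1 to EIF6, without pseudogenes and antisense genes, and that have a probe set listed under that symbol alone. A probe set is the group of array probes summarised into 1 value. This gave 46 of the 22392 genes measured. RefSeq lists 56 protein-coding genes with such a symbol. Of these, 8 (EIF2S2, EIF3C, EIF3CL, EIF3F, EIF4A1, EIF4A2, EIF4B and EIF4EBP3) were covered only by probe sets that also carry another gene's symbol, and 2 (EIF2S3B and EIF4G3) were not listed in the annotation used, so these 10 were not analysed here. The Y-linked EIF1AY is counted among the 46 and its level is not given.

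Cells were treated with 5 µM erastin plus 5 µM tubacin, 5 µM erastin, 5 µM tubacin or DMSO as the control, with 3 arrays in each of the 4 groups. Erastin blocks the import of cystine, and tubacin inhibits the deacetylase HDAC6. The labels give a treatment of 18 h and the methods a longer one. Titles and the cell line field give HCC38 for every sample, while a source field numbers the line upward from sample to sample, and all were taken as HCC38. Nothing states that replicates were cultured separately, and the p-values then speak only for the spread among the arrays at hand, which may be technical. Values are the deposited RMA values (robust multi-array average) on the log2 scale, on which a change of 1 is 2-fold. All arrays are scaled to the same distribution, so fewer cells, or less RNA per cell, cannot be told apart from each other or seen as a change of all genes.

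Eukaryotic initiation begins when eIF2, carrying GTP and the initiator tRNA, joins the small ribosomal subunit together with eIF1, eIF1A, eIF3 and eIF5. The cap-binding complex of eIF4E, eIF4G and the helicase eIF4A brings in the mRNA, the subunit scans for a start codon, and eIF5B then joins the large subunit. The exchange factor eIF2B reloads eIF2 with GTP. The kinases HRI (EIF2AK1), PKR (EIF2AK2), PERK (EIF2AK3) and GCN2 (EIF2AK4) respond to heme or mitochondrial stress, double-stranded RNA, misfolded protein in the endoplasmic reticulum and amino acid shortage. They phosphorylate the alpha subunit of eIF2, which then blocks eIF2B, lowers protein synthesis and favours translation of ATF4 mRNA. The arrays measure mRNA only, not phosphorylation or translation.

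The 12 arrays had medians between 3.06 and 3.12, and correlated with r between 0.982 and 0.9881 within groups and between 0.9708 and 0.9861 between groups. The estrogen receptor ESR1 averaged 2.37 or less in every group. Of 6 epithelial markers, EPCAM and KRT19 averaged at least 10.44 and 10.42 in every group, and KRT8 averaged 5.27 with erastin plus tubacin and 4.44 in the control. CDH1, KRT8 and KRT18 rose with erastin plus tubacin against control, by 0.50, 0.83 and 0.30. The mean level of the 6 ranged over the samples from 8.47 to 8.64 with erastin plus tubacin, 8.34 to 8.61 with erastin, 8.27 to 8.32 with tubacin and 8.27 to 8.34 in the control. Of 3 leukocyte markers, PTPRC averaged 1.84 or less in every group, and CD14 fell by 1.05, with means of 4.55 with erastin plus tubacin and 5.60 in the control. The mean of the 3 ranged from 2.68 to 2.9 with erastin plus tubacin, 2.97 to 3.04 with erastin, 2.93 to 3 with tubacin and 3.02 to 3.25 in the control. Of 4 fibroblast markers, COL1A1, COL1A2 and LUM fell and PDGFRB rose with erastin plus tubacin against control. Group means lay between 8.49 and 9.26 for COL1A1, 6.04 and 6.88 for COL1A2, 3.68 and 5.25 for PDGFRB and 2.13 and 2.48 for LUM. The mean level of the 4 ranged over the samples from 5.43 to 5.52 with erastin plus tubacin, 5.19 to 5.27 with erastin, 5.41 to 5.53 with tubacin and 5.72 to 5.8 in the control. The part of these markers in the results below was not tested.

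With erastin plus tubacin against control, 24 of the 46 members changed at an adjusted p under 0.05 in limma, 7 higher and 17 lower. Over all 22392 genes, 31.1% changed, 14% higher and 17.1% lower. The members are mostly well-expressed genes, and among the 10357 genes with a mean of at least 5 the share was 54.7%, against 24 of the 43 members at that level, so the members' share was near that of genes of like level. The 2 groups did not overlap in 30 members and in 40.8% of all genes. With erastin alone 9 members changed, 4 higher and 5 lower, beside 8.35% of all genes (3.94% higher, 4.41% lower) and 15.2% of those at a level of at least 5. Erastin and control did not overlap in 19 members and in 27% of all genes. With tubacin alone none of the 46 changed, beside 0.232% of all genes. The median change of the members was -0.12 with erastin plus tubacin, 0.00862 with erastin and 0.0164 with tubacin. For all genes it was -0.00569, -0.00866 and -3.02e-05. With genes under a level of 5 left out, erastin plus tubacin gave -0.137 for the members and -0.0576 for all genes. After a further quantile or cyclic loess normalization the members had -0.0776 and -0.0565, and all genes -0.00174 and 0.00222. The 3 comparisons with the control share the control samples. Between erastin plus tubacin and erastin 19 members changed, 4 higher and 15 lower, beside 25.8% of all genes (11.2% higher, 14.6% lower). Between erastin plus tubacin and tubacin 23 changed, 4 higher and 19 lower, beside 28.2% (12.3% higher, 15.9% lower). Groups did not overlap in 30 and 34 members, beside 39.4% and 40.7% of all genes. Of the genes at a level of at least 5, 47% and 51% changed in these 2 comparisons.

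**Figure D1:**
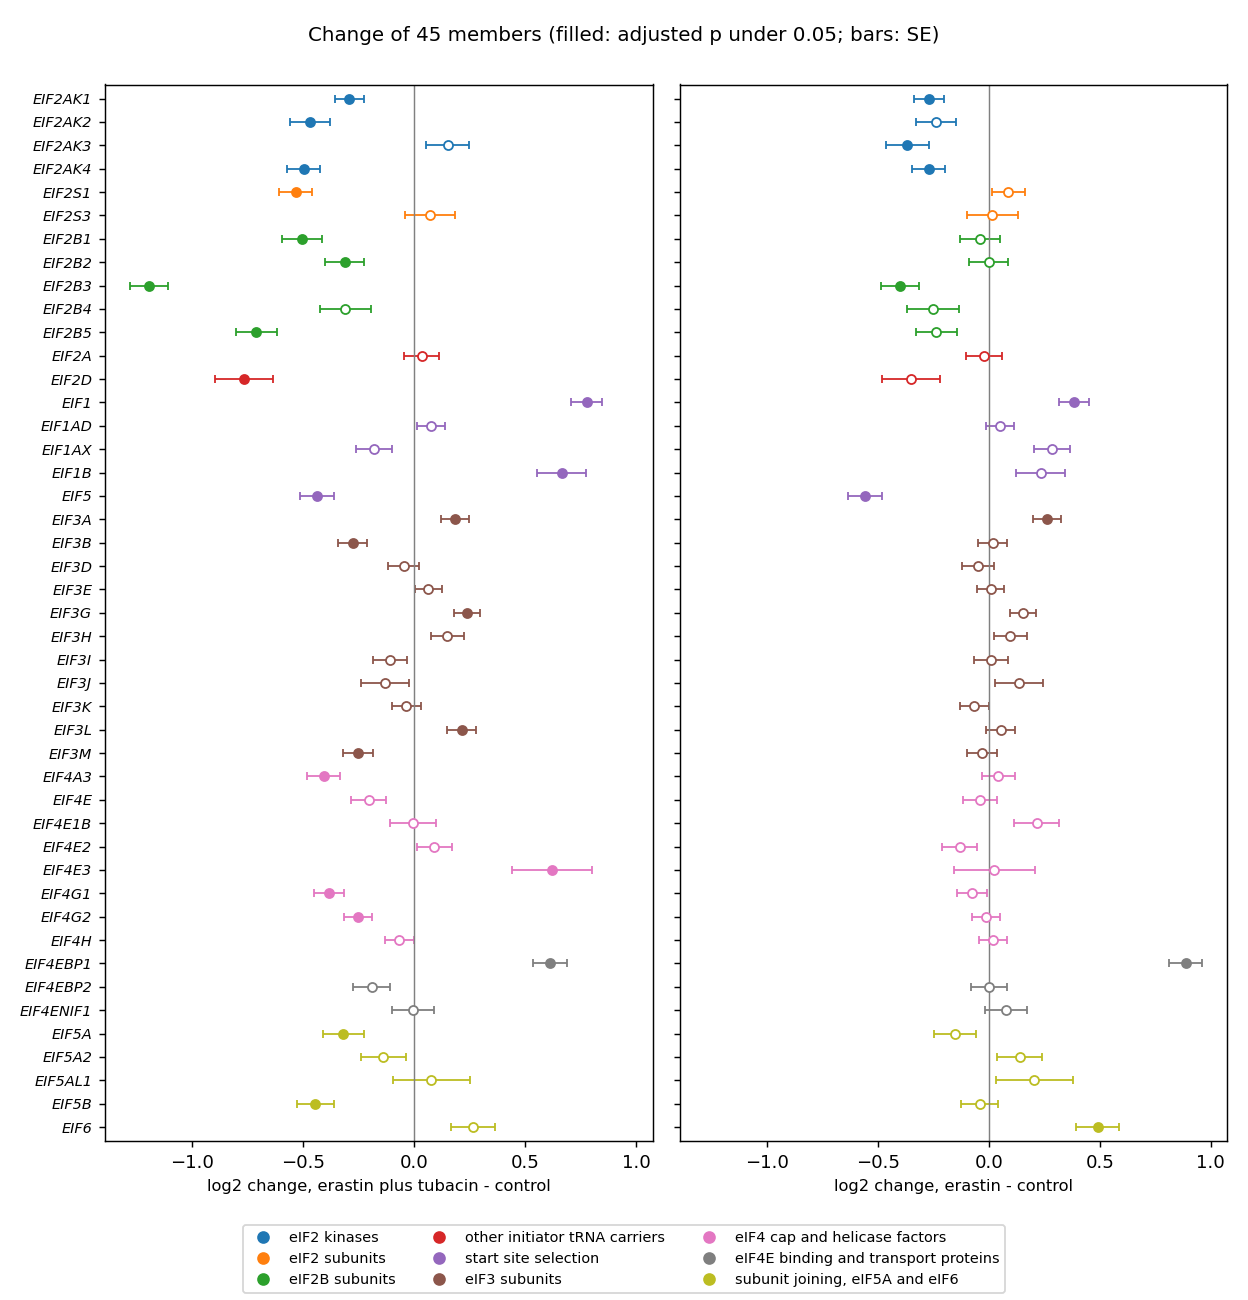
Change of 45 members (EIF1AY left out) on the log2 scale with erastin plus tubacin (left) and with erastin (right) against control, 3 samples per group. Points are fitted changes, bars are standard errors and filled points passed an adjusted p of 0.05; EIF2B3 lies farthest to the left at -1.19 with erastin plus tubacin, and EIF4EBP1 farthest to the right at 0.89 with erastin.

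Short stretches of promoter are shown for 4 members that hold the letters marked in them, to set the sequence beside the values. Members with a large change and no E-box, such as EIF2B5 and EIF2S1, are not shown. Windows of 250 bases before and 50 after a transcription start were taken from RefSeq (GRCh38.p14) for 39 of the 46 members. Both strands were searched. The other 7 (EIF2AK1, EIF3A, EIF3E, EIF3G, EIF3H, EIF3L and EIF4EBP1) had no window, so they were not searched and may hold any of these letters. Some genes, such as EIF5A and EIF4G1, had several windows, and a match in any of them counted for the gene. The letters CACGTG, the E-box bound by MYC and related factors, were found in 9 of these 39 members and in 8.77% of 27305 genes. Among the members with a window they were in 4 of 16 that fell with erastin plus tubacin, 1 of 3 that rose and 4 of 20 that did not pass. The letters CCAAT, the CCAAT box, were in 19 of 39 members and 39.7% of all genes. The letters TGATGNAA, the composite element of ATF4 and C/EBP factors, were in 1 of 39 members (EIF4E3) and 4.46% of all genes. A match describes these letters only.

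The first 3 stretches belong to EIF2B3 (chr1:44986596-44986845, minus strand), EIF4A3 (chr17:80147129-80147378, minus strand) and EIF1B (chr3:40309457-40309706, plus strand), with the E-box in capitals. EIF2B3 and EIF4A3 fell and EIF1B rose with erastin plus tubacin, so the same letters stand before genes that changed in opposite directions. The last belongs to EIF2AK3 (chr2:88627465-88627714, minus strand), with its 4 CCAAT boxes in capitals on either strand. Each holds the 250 bases before the start, written 5′ to 3′ on the strand of the gene.
EIF2B3: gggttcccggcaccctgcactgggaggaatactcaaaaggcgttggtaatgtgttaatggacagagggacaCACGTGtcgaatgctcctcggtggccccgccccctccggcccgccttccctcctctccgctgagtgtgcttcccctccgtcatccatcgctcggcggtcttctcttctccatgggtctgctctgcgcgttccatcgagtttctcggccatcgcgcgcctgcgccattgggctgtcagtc
EIF4A3: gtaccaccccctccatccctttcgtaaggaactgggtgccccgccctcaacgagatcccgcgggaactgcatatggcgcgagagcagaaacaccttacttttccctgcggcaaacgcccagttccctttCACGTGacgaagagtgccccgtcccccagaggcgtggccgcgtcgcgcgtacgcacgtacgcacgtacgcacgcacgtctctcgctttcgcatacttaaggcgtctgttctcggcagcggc
EIF1B: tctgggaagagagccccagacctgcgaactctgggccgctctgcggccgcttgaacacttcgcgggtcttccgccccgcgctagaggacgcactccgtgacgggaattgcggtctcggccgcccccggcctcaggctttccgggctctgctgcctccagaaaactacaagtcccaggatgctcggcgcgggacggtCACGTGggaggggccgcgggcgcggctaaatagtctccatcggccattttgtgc
EIF2AK3: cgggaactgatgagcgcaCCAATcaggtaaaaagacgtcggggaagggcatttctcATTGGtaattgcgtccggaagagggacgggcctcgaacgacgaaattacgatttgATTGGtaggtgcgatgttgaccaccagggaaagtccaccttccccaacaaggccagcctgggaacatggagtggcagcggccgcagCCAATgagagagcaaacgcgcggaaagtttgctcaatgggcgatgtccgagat
The E-box lies at positions -179 to -174 in EIF2B3, -121 to -116 in EIF4A3 and -54 to -49 in EIF1B, counted from the start.

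With erastin plus tubacin against control, 3 of the 4 eIF2 kinases fell, all but PERK. Counts within this and the following groups stand beside 54.7% of genes at a level of at least 5 that changed in either direction. With erastin alone that share was 15.2%, and with tubacin alone 0.415%. Whether any of these small groups differs from those shares was not tested. GCN2 (EIF2AK4), the sensor of uncharged tRNA, had 7.01, 6.98 and 6.93 with erastin plus tubacin, 7.20, 7.21 and 7.19 with erastin, 7.37, 7.32 and 7.52 with tubacin and 7.53, 7.48 and 7.40 in the control. All erastin plus tubacin samples lay below all samples of the other groups. The change against control was -0.50 (SE 0.0727, adjusted p = 0.000345), a 1.41-fold fall. PKR (EIF2AK2) read 9.71, 9.52 and 9.47 with erastin plus tubacin, against 10.06, 10.08 and 9.97 in the control, with no overlap, and fell by 0.47 (SE 0.0885, adjusted p = 0.0019). With erastin it read 9.86, 9.84 and 9.69 and with tubacin 9.95, 9.81 and 10.00. Erastin alone gave a change of -0.24 (adjusted p = 0.142) and tubacin alone -0.12 (adjusted p = 0.705). HRI (EIF2AK1) read 9.04, 9.08 and 9.04 with erastin plus tubacin and 9.04, 9.14 and 9.05 with erastin, against 9.37, 9.38 and 9.27 in the control. Both treatments lay below the control without overlap, by 0.29 (SE 0.0666, adjusted p = 0.00636) and 0.27 (adjusted p = 0.0334), and did not differ detectably from each other (-0.02, 95% interval from -0.17 to 0.13). With tubacin HRI read 9.27, 9.23 and 9.34.

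PERK (EIF2AK3), the kinase of the endoplasmic reticulum membrane, was low with erastin and high when tubacin was added. It read 7.43, 7.44 and 7.32 with erastin plus tubacin, 6.97, 6.93 and 6.73 with erastin, 7.12, 7.01 and 7.05 with tubacin and 7.41, 7.23 and 7.10 in the control. The erastin plus tubacin samples lay above all samples of either drug alone and overlapped the control. Against erastin the combination was higher by 0.52 (SE 0.0964, adjusted p = 0.00218) and against tubacin by 0.34 (adjusted p = 0.0227), while against control the change was 0.15 (adjusted p = 0.285). The higher level against tubacin did not pass without tubacin 2, tubacin 3, erastin plus tubacin 1 or erastin plus tubacin 2 (0.31 to 0.33).

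The kinase changes with erastin alone were small. PERK had -0.37 against control (SE 0.0964, adjusted p = 0.0415) and GCN2 -0.27 (SE 0.0727, adjusted p = 0.0457), both without overlap between the groups. The call for PERK was lost when any single sample other than control 3 was left out (-0.41 to -0.29), and that for GCN2 when any other than tubacin 3 was left out (-0.31 to -0.24). That for HRI was lost without control 1, control 2, any 1 erastin sample or tubacin 1 (-0.30 to -0.25).

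**Figure D2:**
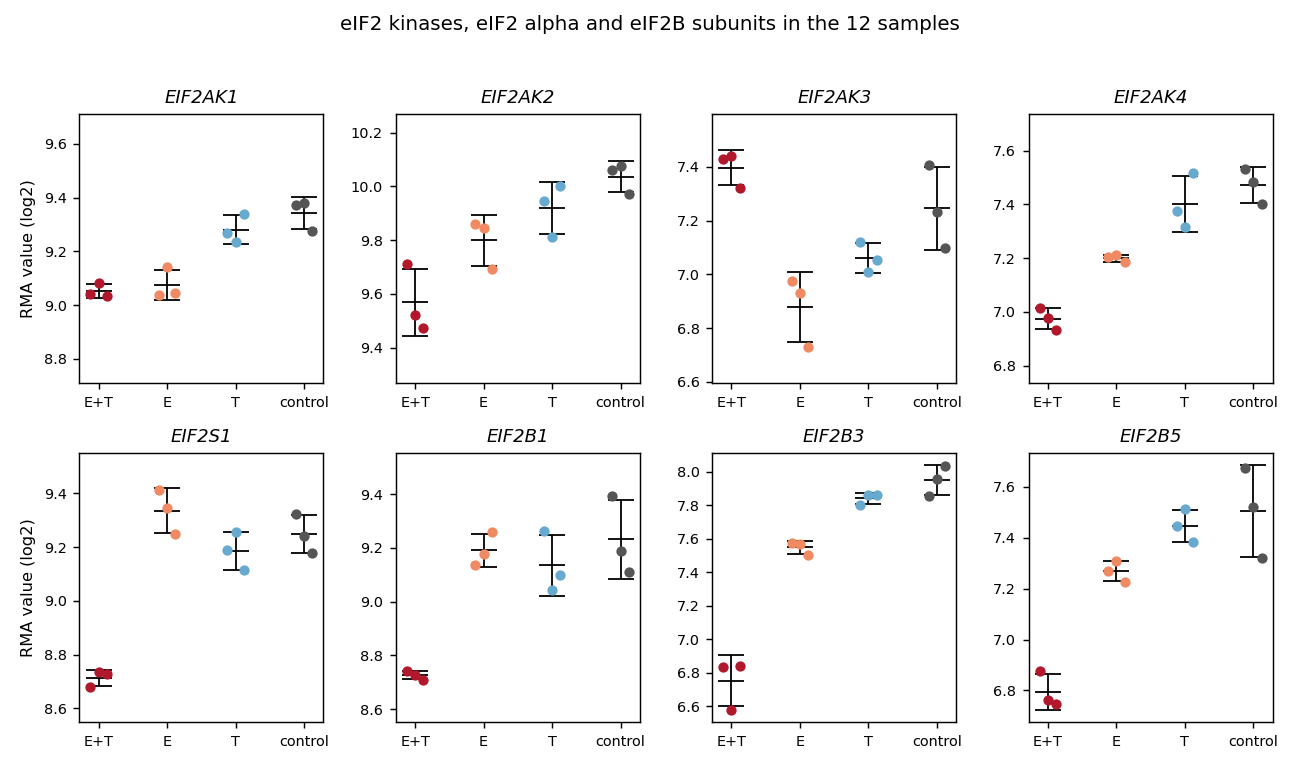
RMA values (log2) of the 4 eIF2 kinases, eIF2 alpha and 3 eIF2B subunits in every sample, with erastin plus tubacin (E+T), erastin (E), tubacin (T) and control, each n = 3. Points are samples and bars are mean ± SD on axes that differ in range; EIF2S1, EIF2B1, EIF2B3 and EIF2B5 lie lowest in the 3 erastin plus tubacin samples, and EIF2AK3 lies higher there than with either drug alone.

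The alpha subunit of eIF2 and most subunits of its exchange factor fell with erastin plus tubacin. The alpha subunit of eIF2 (EIF2S1), which carries the phosphorylated serine, read 8.68, 8.73 and 8.73 with erastin plus tubacin, 9.41, 9.35 and 9.25 with erastin, 9.19, 9.26 and 9.11 with tubacin and 9.32, 9.24 and 9.18 in the control. The erastin plus tubacin samples lay below all others, and the other 3 groups overlapped. The change was -0.53 against control (SE 0.0735, adjusted p = 0.000227), -0.62 against erastin (adjusted p = 0.000111) and -0.47 against tubacin (adjusted p = 0.000595). The gamma subunit EIF2S3, which binds GTP and the tRNA, averaged 6.80 ± 0.0371 with erastin plus tubacin and 6.73 ± 0.225 in the control (SD, n = 3 each), a change of 0.07 (SE 0.113, adjusted p = 0.691).

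Of the 5 subunits of eIF2B, 4 fell with erastin plus tubacin against control, beside 54.7% of genes at a level of at least 5 that changed. The gamma subunit EIF2B3, part of the catalytic subcomplex, had the largest change of any member. It read 6.84, 6.58 and 6.84 with erastin plus tubacin, 7.57, 7.57 and 7.50 with erastin, 7.80, 7.86 and 7.86 with tubacin and 7.86, 7.96 and 8.03 in the control. The combination lay below every other sample, and erastin lay below tubacin and control. The change against control was -1.19 (SE 0.0853, adjusted p = 2.12e-06), a 2.29-fold fall, and it was -0.79 against erastin and -1.09 against tubacin (adjusted p = 5.71e-05 and 4.75e-06). With erastin alone it was -0.40 (adjusted p = 0.0168), a call lost without control 3, erastin 2 or erastin 3 (-0.41 to -0.36).

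EIF2B5, the catalytic epsilon subunit, read 6.88, 6.76 and 6.75 with erastin plus tubacin, 7.27, 7.31 and 7.23 with erastin, 7.45, 7.51 and 7.38 with tubacin and 7.67, 7.52 and 7.32 in the control. The combination again lay below all other samples, by 0.71 against control (SE 0.0924, adjusted p = 0.000152). The regulatory subunits, which sense phosphorylated eIF2, had smaller fitted changes. EIF2B1 (alpha) averaged 8.73 ± 0.0159 with erastin plus tubacin and 9.23 ± 0.147 in the control, and fell by 0.51 (SE 0.0895, adjusted p = 0.00126). EIF2B2 (beta) averaged 9.13 ± 0.0685 with erastin plus tubacin and 9.44 ± 0.115 in the control, and fell by 0.31 (SE 0.0873, adjusted p = 0.0186), a call lost without control 2, erastin plus tubacin 1 or erastin plus tubacin 3 (-0.30 to -0.26). For EIF2B4 (delta) the change was -0.31 (SE 0.116, adjusted p = 0.0674), with overlap, and it passed without control 2 (-0.42) or erastin plus tubacin 1 (-0.38). With erastin alone, EIF2B3 was the 1 subunit of the 5 that passed, beside 15.2% of genes at a level of at least 5.

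The factors that can bring tRNA to the ribosome in place of eIF2 differed. EIF2D read 7.34, 7.65 and 7.82 with erastin plus tubacin, 7.87, 8.05 and 8.13 with erastin, 8.32, 8.61 and 8.56 with tubacin and 8.41, 8.44 and 8.26 in the control. The combination lay below all other samples, most narrowly below erastin. EIF2D fell by 0.77 against control (SE 0.131, adjusted p = 0.00101) and by 0.89 against tubacin (adjusted p = 0.000396). Against erastin it was lower by 0.41 (adjusted p = 0.0395), which did not pass without control 1, control 2, erastin 2, erastin 3, tubacin 3, erastin plus tubacin 1 or erastin plus tubacin 2 (-0.44 to -0.28). EIF2A averaged 10.17 ± 0.0229 with erastin plus tubacin and 10.14 ± 0.0995 in the control, a change of 0.03 (SE 0.0802, adjusted p = 0.802).

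The factors that set the stringency of start codon choice moved in opposite directions. EIF1, which keeps the scanning ribosome open until a start codon is met, read 10.46, 10.30 and 10.39 with erastin plus tubacin, 10.02, 10.01 and 9.94 with erastin, 9.73, 9.77 and 9.74 with tubacin and 9.64, 9.66 and 9.53 in the control. The 4 groups did not overlap. EIF1 rose by 0.78 with erastin plus tubacin (SE 0.0691, adjusted p = 9.98e-06) and by 0.38 with erastin (adjusted p = 0.00702), and the change with tubacin was 0.13 (adjusted p = 0.549). Between erastin plus tubacin and erastin the difference was 0.39 (adjusted p = 0.00156).

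EIF1B, a close paralog of EIF1, read 5.71, 5.61 and 5.93 with erastin plus tubacin, 5.35, 5.31 and 5.29 with erastin, 5.11, 5.18 and 4.98 with tubacin and 5.26, 5.09 and 4.91 in the control. Only erastin plus tubacin, which lay above all other samples, passed against control, by 0.66 (SE 0.109, adjusted p = 0.000732). Probes of the 2 paralogs may bind both transcripts, so their values may not be fully separate. EIF5, the GTPase activator of eIF2 that opposes EIF1, read 7.86, 7.94 and 7.99 with erastin plus tubacin and 7.84, 7.90 and 7.70 with erastin, against 8.37, 8.44 and 8.30 in the control. With tubacin it read 8.42, 8.40 and 8.50. Both groups with erastin lay below both groups without it. The falls were 0.44 with erastin plus tubacin (SE 0.0771, adjusted p = 0.00124) and 0.56 with erastin (adjusted p = 0.00164), and the 2 groups did not differ detectably (0.12, adjusted p = 0.322).

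EIF1AX, the X-linked eIF1A that works with EIF1 in scanning, was highest with erastin and lowest with erastin plus tubacin. It read 8.32, 8.33 and 8.24 with erastin plus tubacin, 8.81, 8.76 and 8.72 with erastin, 8.58, 8.59 and 8.54 with tubacin and 8.39, 8.39 and 8.65 in the control. The erastin samples lay highest and the erastin plus tubacin samples lowest, and control 3 lay above the other control samples. The difference between erastin plus tubacin and erastin was -0.47 (SE 0.081, adjusted p = 0.00145). Against control neither passed (-0.18, adjusted p = 0.123, and 0.28, adjusted p = 0.0574), and without control 3 the erastin change passed at 0.37. Its Y-linked homolog has near-identical sequence, and probes may bind both. EIF1AD, named for its eIF1A-like domain, had a change of 0.08 with erastin plus tubacin (adjusted p = 0.415).

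**Figure D3:**
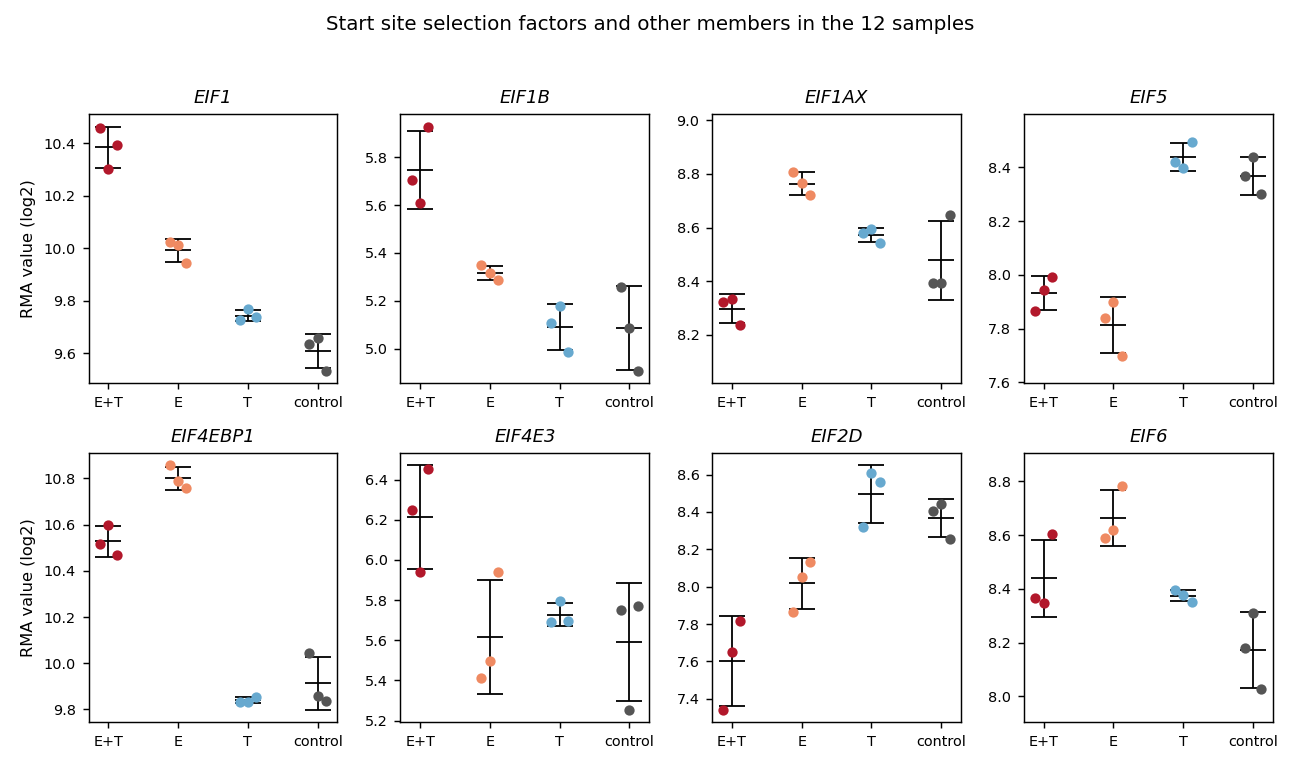
RMA values (log2) of start site factors, EIF4EBP1, EIF4E3, EIF2D and EIF6 in every sample, with erastin plus tubacin (E+T), erastin (E), tubacin (T) and control, each n = 3. Points are samples and bars are mean ± SD on axes that differ in range; EIF1 lies between 10.30 and 10.46 in the erastin plus tubacin samples and between 9.53 and 9.66 in the control, and EIF4EBP1 lies highest with erastin.

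Subunits of eIF3, the scaffold that holds the initiation factors on the small subunit, changed little. Of 11 measured, 3 rose and 2 fell with erastin plus tubacin against control, all by under 0.3. EIF3G, an RNA-binding subunit, rose by 0.24 (SE 0.0591, adjusted p = 0.00942), with 10.25, 10.27 and 10.32 with erastin plus tubacin against 10.03, 10.08 and 10.01 in the control. EIF3L rose by 0.21 (adjusted p = 0.0281) and EIF3A, the largest subunit, by 0.19 (adjusted p = 0.0472). The core subunit EIF3B fell by 0.28 (SE 0.065, adjusted p = 0.00743) and EIF3M by 0.25 (adjusted p = 0.0132). Of these calls EIF3A was lost without any single sample other than erastin 1 (0.17 to 0.21), EIF3L without control 2, control 3, erastin plus tubacin 2 or erastin plus tubacin 3 (0.19 to 0.22) and EIF3M without erastin plus tubacin 1 (-0.22). With erastin alone EIF3A rose by 0.26 (adjusted p = 0.0299), a call lost without control 1, control 2 or any 1 erastin sample (0.23 to 0.29). The other 6 (EIF3D, EIF3E, EIF3H, EIF3I, EIF3J and EIF3K) passed in none of the 3 comparisons with the control.

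Among the 8 cap and helicase factors of the eIF4 group, 1 rose and 3 fell with erastin plus tubacin. None passed with erastin alone, beside 15.2% of genes at a level of at least 5. EIF4A3, a helicase better known as part of the exon junction complex, read 9.54, 9.60 and 9.76 with erastin plus tubacin, 10.06, 10.10 and 10.09 with erastin, 9.98, 9.87 and 10.00 with tubacin and 10.09, 10.04 and 9.99 in the control. The combination lay below all other samples, by 0.41 against control (SE 0.0755, adjusted p = 0.00172) and 0.45 against erastin (adjusted p = 0.00117). The scaffold EIF4G1 fell by 0.38 (SE 0.0679, adjusted p = 0.00126), with means of 8.90 ± 0.0633 with erastin plus tubacin and 9.28 ± 0.0178 in the control. EIF4G2, a homolog of EIF4G1 that lacks its site for eIF4E, fell by 0.25 (SE 0.0638, adjusted p = 0.0113).

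EIF4E3, a cap-binding relative of EIF4E, was the member of this group that rose. It read 6.25, 5.94 and 6.45 with erastin plus tubacin, 5.41, 5.50 and 5.94 with erastin, 5.69, 5.80 and 5.70 with tubacin and 5.75, 5.25 and 5.77 in the control. The combination lay above the control and tubacin, while erastin plus tubacin 2 and erastin 3 were near equal. Its spread was the widest among these members, and the change of 0.62 against control (SE 0.182, adjusted p = 0.0235) was lost without control 2, erastin plus tubacin 1 or erastin plus tubacin 3 (0.45 to 0.60). The difference of 0.60 from erastin (adjusted p = 0.0333) was lost without erastin 1, erastin 2, erastin plus tubacin 1 or erastin plus tubacin 3 (0.48 to 0.58). EIF4E itself, the main cap-binding protein, averaged 5.74 ± 0.0925 with erastin plus tubacin and 5.95 ± 0.0805 in the control, a change of -0.20 (SE 0.0777, adjusted p = 0.0713). The changes of EIF4E1B, EIF4E2 and EIF4H lay between -0.07 and 0.09, none of which passed.

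EIF4EBP1, the protein that sequesters eIF4E when mTOR is inactive, had the largest rise of any member with erastin. It read 10.52, 10.60 and 10.47 with erastin plus tubacin, 10.86, 10.79 and 10.76 with erastin, 9.83, 9.83 and 9.86 with tubacin and 10.05, 9.86 and 9.84 in the control. Both groups with erastin lay above both groups without it, and erastin lay above erastin plus tubacin. The rise was 0.61 with erastin plus tubacin (SE 0.0753, adjusted p = 9.9e-05) and 0.89 with erastin (adjusted p = 9.52e-05), a 1.85-fold change. The combination was lower than erastin by 0.27 (adjusted p = 0.0204), which did not pass without erastin 1, erastin 2, erastin plus tubacin 1 or erastin plus tubacin 3 (-0.28 to -0.24).

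Its homolog EIF4EBP2 read 10.27, 10.27 and 10.39 with erastin plus tubacin, 10.44, 10.54 and 10.52 with erastin, 10.59, 10.53 and 10.44 with tubacin and 10.37, 10.61 and 10.52 in the control. The combination overlapped the control at 10.37 to 10.39 and lay below both single drugs. Its changes against control were -0.19 with erastin plus tubacin (SE 0.0818, adjusted p = 0.107) and 0.00 with erastin (adjusted p = 1), and the first passed without control 1 (-0.26). EIF4ENIF1, which carries EIF4E into the nucleus, had a change of 0.00 with erastin plus tubacin (SE 0.0929, adjusted p = 0.978).

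Of the factors that act late or on the large subunit, EIF5B, which joins the subunits, averaged 8.87 ± 0.0469 with erastin plus tubacin and 9.31 ± 0.116 in the control, and fell by 0.44 (SE 0.083, adjusted p = 0.00178). EIF5A, an elongation-promoting factor that carries the amino acid hypusine, fell by 0.32 (SE 0.0938, adjusted p = 0.0245). That call was lost without control 3, erastin plus tubacin 1 or erastin plus tubacin 2 (-0.31 to -0.26), and its probes may also bind the copy EIF5AL1, whose change was 0.08 (adjusted p = 0.791). EIF6, which keeps the subunits apart, read 8.37, 8.35 and 8.60 with erastin plus tubacin, 8.59, 8.62 and 8.78 with erastin, 8.40, 8.38 and 8.35 with tubacin and 8.18, 8.31 and 8.03 in the control. Both groups with erastin lay above the control. EIF6 rose by 0.49 with erastin (SE 0.0982, adjusted p = 0.0123), a call lost without erastin 3 (0.43). With erastin plus tubacin the change was 0.27 (adjusted p = 0.0636), which passed without control 2 (0.34).

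Tubacin alone changed no member by limma at an adjusted p under 0.05, beside 0.232% of all genes. None had an unadjusted p under 0.05 in limma either, beside 2290 of all 22392 genes. The methods' t-test, unadjusted, called 4 (EIF1, EIF3A, EIF3G and EIF4ENIF1, all higher by under 0.2). The same test called 8.98% of all genes, so the members' share was near that of all genes. Over the 45 members other than EIF1AY the changes lay between -0.18 (EIF2AK3) and 0.30 (EIF5AL1), and the widest limits of their 95% intervals were -0.40 and 0.68, so what the arrays leave possible differs from gene to gene. The samples of tubacin and control did not overlap in 8 of the 46 members, beside 15.8% of all genes.

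The interaction, obtained by subtracting both single-drug changes from that of the combination, tests whether the 2 drugs add up on the log2 scale. It passed for 7 members, 1 higher and 6 lower, beside 15% of all genes (6.2% higher, 8.84% lower) and 28.1% of those at a level of at least 5. EIF2AK3 had the only positive one, at 0.70 (SE 0.136, adjusted p = 0.00559): each drug alone gave a negative change and both together a positive one of 0.15 that did not pass. EIF2B3 had -0.69 (SE 0.121, adjusted p = 0.00324), EIF2S1 -0.56 (SE 0.104, adjusted p = 0.00444) and EIF1AX -0.56 (SE 0.115, adjusted p = 0.00765). For EIF2S1 neither drug alone passed (0.09 and -0.06). These 4 passed without each of the 12 samples in turn. Those of EIF4A3 (-0.36, adjusted p = 0.0457), EIF3M (-0.33, adjusted p = 0.0383) and EIF3B (-0.31, adjusted p = 0.048) were near the threshold. EIF4A3 passed only without control 1 or erastin plus tubacin 3, EIF3M only without tubacin 3 or erastin plus tubacin 2, and EIF3B only without tubacin 3, and over the samples whose loss ended the call the values were -0.40 to -0.31, -0.34 to -0.30 and -0.33 to -0.28.

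**Figure D4:**
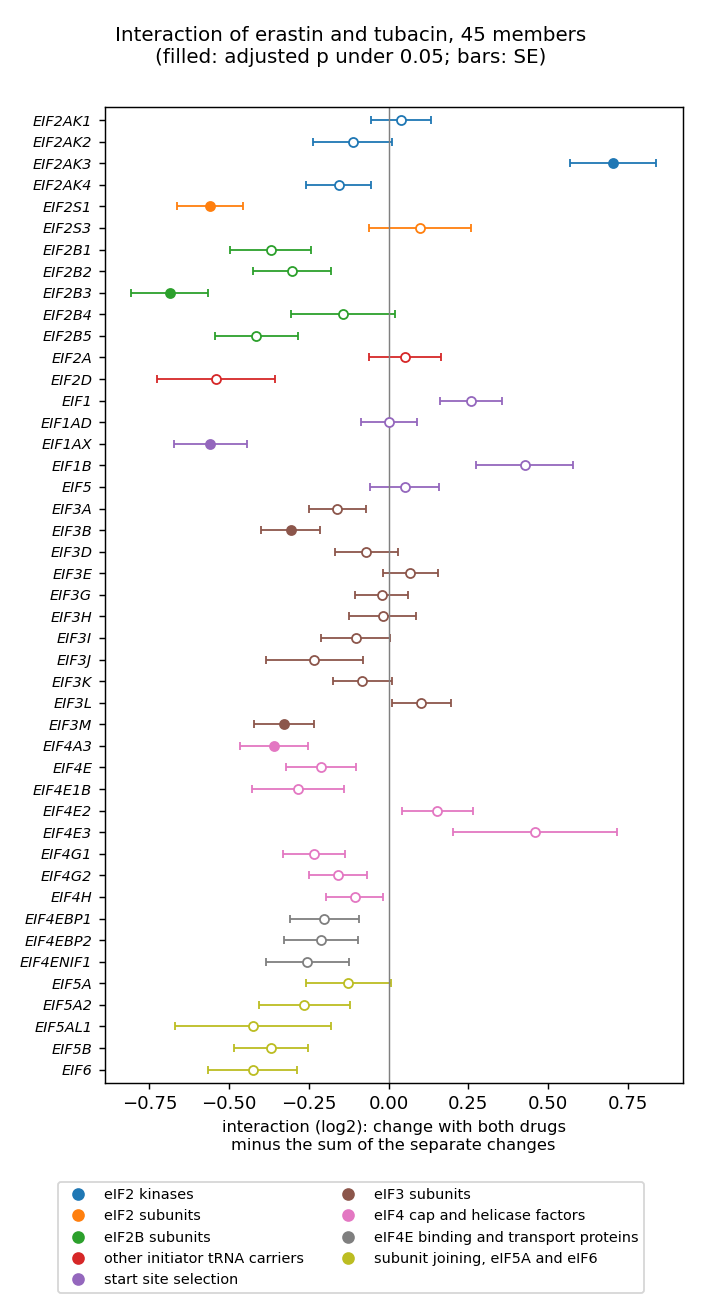
Interaction of erastin and tubacin on the log2 scale for 45 members (EIF1AY left out), from 3 samples in each of 4 groups. Points are fitted values, bars are standard errors and filled points passed an adjusted p of 0.05; EIF2AK3 lies farthest to the right at 0.70 and EIF2B3 farthest to the left at -0.69.

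For EIF4EBP1, EIF5 and EIF1, members that changed with erastin alone, the interaction was -0.20 (SE 0.107, adjusted p = 0.264), 0.05 (SE 0.109, adjusted p = 0.827) and 0.26 (SE 0.0977, adjusted p = 0.11). None of the 3 passed, but that of EIF1 passed with dim genes left out (adjusted p = 0.0273) and with trend and robust moderation of the variances (adjusted p = 0.0147). The median SE of an interaction among the members was 0.112.

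Genes that act on eIF2 from outside the family are described as lists, whose counts stand beside 31.1% of all genes and 54.7% of those at a level of at least 5 that changed with erastin plus tubacin, and 8.35% and 15.2% with erastin. Of 10 measured regulators of eIF2 phosphorylation, 4 rose and 2 fell with erastin plus tubacin against control (60% of the list, with a median change of 0.114), and 3 rose and 2 fell with erastin (median 0.0185). PPP1R15A (GADD34), which directs a phosphatase to eIF2 alpha, averaged 8.77 ± 0.0798 with erastin plus tubacin, 7.10 ± 0.135 with erastin and 6.55 ± 0.16 in the control, and rose by 2.22 (adjusted p = 1.52e-07) and 0.55 (adjusted p = 0.00916). PPP1R15B, its constitutive counterpart, rose by 0.30 and 0.52 (adjusted p = 0.00464 and 0.000998). DNAJC3, an inhibitor of PKR and PERK, rose by 0.41 with erastin plus tubacin (adjusted p = 0.00399), and GCN1, the activator of GCN2, fell by 0.38 (adjusted p = 0.00245). IMPACT, which competes with GCN2 for GCN1, rose by 0.44 with erastin (adjusted p = 0.00692). The phosphatase subunits went in opposite directions with erastin plus tubacin, PPP1CB by 0.39 and PPP1CC by -0.56 (adjusted p = 0.00119 and 0.000171).

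Of 3 measured transcription factors and cofactors that eIF2 phosphorylation controls, all rose with erastin plus tubacin (median change 1.58) and 2 with erastin (median 0.57). ATF4 rose by 0.76 and 0.57 (adjusted p = 2.22e-05 and 0.00126), and TRIB3, a pseudokinase that is a target of ATF4, by 1.58 and 1.51 (adjusted p = 6.72e-07 and 1.14e-05). DDIT3 (CHOP), whose mRNA and translation both respond to eIF2 phosphorylation, averaged 6.43 ± 0.05 with erastin plus tubacin, 4.91 ± 0.28 with erastin and 4.36 ± 0.74 in the control, and its change of 0.55 with erastin did not pass (adjusted p = 0.335). Of 21 measured regulators of cap-binding and ribosome recruitment, 4 rose and 7 fell with erastin plus tubacin, which is 52.4% of the list. That was near the 54.7% of genes at a level of at least 5, and the median change of the list was -0.125. With erastin none of the 21 passed, and 5 had an unadjusted p under 0.05 in limma, beside 4846 of all 22392 genes. MKNK2, a kinase of eIF4E, rose by 0.68 (adjusted p = 8.92e-05) and PAIP2B, an inhibitor of poly(A)-binding protein, by 0.86 (adjusted p = 5.83e-05). The recycling factor ABCE1, the helicase DHX29 and the tRNA-recruiting DENR fell by 0.62, 0.51 and 0.46 (adjusted p = 2.14e-05, 0.000234 and 0.00192). The changes of MTOR and RPTOR were -0.17 and 0.05 (adjusted p = 0.169 and 0.648).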

How the data were processed

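RNA of HCC38 cells was hybridised to 12 Human Gene 2.1 ST arrays, 1 per sample. The authors used RMA on the probe intensities and deposited 1 log2 value per probe set and array. The sources used here name no version of RMA, and no detection calls were used. Of 53617 probe sets, 25718 are listed in the array annotation, 23866 with exactly 1 symbol, and 1852 with several, which were not used. Entrez IDs matched 22560 probe sets to RefSeq. For 630 of the 22392 genes with several probe sets that with the highest mean over the 12 samples was used; no member had several. In 4 cases a symbol beginning with EIF was left out as an antisense, divergent or pseudogene transcript.

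Groups follow the labels. The tests used limma 3.58.1 (R 4.3.3): lmFit on 4 group means, contrasts and eBayes, two-sided, for 6 comparisons, with p-values adjusted by Benjamini-Hochberg over all 22392 genes and a threshold of 0.05. "Rose" and "fell" are used of changes past it. No filter on dim genes was applied. The fit was tested on simulated data over all 22392 genes. A planted change of 0.5 was found in 27.5% of cases with erastin plus tubacin against control and 12.5% in the interaction. One of 1 was found in 77% and 54.3%. A change that did not pass is therefore not shown to be absent. The number of arrays limits the precision, with a median standard error of 0.0789 for a member and 0.136 for all genes. The members and lists were chosen with earlier results of these data known, so no p over the members or a list is given. Values in every sample are given for the kinases, the eIF4E-binding proteins and the 5 members with the largest change past the threshold in each comparison. A further 22 settings were tried, 19 of them for the interaction. Promoters were read from RefSeq (GRCh38.p14) with Python 3.11.15, 250 bases before and 50 after the start, and matched to 39 members by symbol.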

Additional observations from a re-analysis of the deposited data

Results flagged for a closer look

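For 7 members the effect of erastin differed between cells with and without tubacin by the interaction test in limma, which is 15.2% of the 46, beside 15% of all genes and 28.1% of those at a level of at least 5. The values on the log2 scale were 0.70 for EIF2AK3, -0.69 for EIF2B3, -0.56 for EIF2S1, -0.56 for EIF1AX, -0.36 for EIF4A3, -0.33 for EIF3M and -0.31 for EIF3B. The last 3 were lost after either further normalization, with the replicate block and without most single samples (10, 10 and 11 of the 12). With tubacin present EIF2AK3 rose with erastin (0.34), and without it EIF2AK3 fell (-0.37), calls that were lost in 5 and 14 of 22 settings, while the interaction of EIF2AK3 passed in all 19 run. For EIF1AX the difference was -0.27 with tubacin present and 0.28 without it, of which the second did not pass (adjusted p = 0.0574). The first (adjusted p = 0.0261) was lost in 9 of 22 settings, both further normalizations, the replicate block and the loss of any 1 tubacin sample, erastin plus tubacin 1 or erastin plus tubacin 3 among them (-0.29 to -0.20 over the 22 settings).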

How the results depend on the processing

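Over 22 other settings (19 for the interaction) no change of a member reversed a called direction. Counts of changed members that moved by over 1.5 times were as follows. With only the groups compared in the fit, 15 changed with erastin plus tubacin against control (24) and 2 with erastin against control (9). The shares of all genes were 24.6% and 3.59%. At a threshold of 0.01, 3 changed with erastin, 11 against erastin (19), 15 against tubacin (23) and 4 in the interaction (7). The shares of all genes at this threshold were 3.45%, 17.2%, 20.1% and 8.07%. The methods' t-test, unadjusted, called 15 with erastin and 4 with tubacin, beside 18.8% and 8.98% of all genes. After Benjamini-Hochberg adjustment it called 2 with erastin, beside 2.84% of all genes. The interaction count was 16 of 43 members with dim genes left out, with fewer genes tested, beside 41.5% of the genes then tested. It was 15 with trend and robust moderation, beside 18.9% of all genes. Leaving out 1 sample gave 20 to 24 with erastin plus tubacin, 3 to 8 with erastin and 0 with tubacin. Of all genes, 27.2% to 30.3%, 4.76% to 7.87% and 0.067% to 0.183% then changed. It gave 13 to 19 against erastin, 17 to 23 against tubacin and 4 to 7 in the interaction. The shares of all genes there were 21.3% to 26.7%, 24.4% to 29% and 11.9% to 14.2%. With erastin, 5 remained without control 1, control 2 or erastin 1, 4 without erastin 2 and 3 without erastin 3. The interaction fell to 4 without any 1 erastin sample, tubacin 1, tubacin 2 or erastin plus tubacin 1. Without each of the 12 samples in turn, 18 of the 24 members kept their call with erastin plus tubacin, 3 of the 9 (EIF1, EIF4EBP1 and EIF5) with erastin and 4 of the 7 in the interaction. The causes were not tested.

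Normalizing again changed the balance of directions. Against erastin, 6 members rose and 11 fell after quantile and 6 and 12 after cyclic loess normalization, beside 4 and 15. Against tubacin it was 6 and 13, and 7 and 13, beside 4 and 19. The interaction gave 2 higher and 3 lower in both, beside 1 and 6, with EIF1B added and EIF3B, EIF3M and EIF4A3 lost. The share of all genes that changed was 25.3% against erastin and 14.7% in the interaction after either normalization. Against tubacin that share was 28.1% and 28.2%.

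Replicate numbers did not pair the samples: deviations of same-numbered samples correlated between -0.0609 and 0.0469. With the replicate number as a block 4 members passed in the interaction, 22 with erastin plus tubacin and 6 with erastin. Of all genes 13.3%, 29.5% and 6.36% passed. With tubacin 0 members passed, 17 against erastin and 21 against tubacin, beside 0.103%, 24.2% and 26.8% of all genes.

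Arrays give relative mRNA levels, so neither the amount of RNA per cell, nor phosphorylation of eIF2, nor translation was measured. Members that share their probes with another gene were not analysed here.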

Other observations

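Beyond initiation, 7 of 11 listed elongation and termination factors were measured. With erastin plus tubacin against control 2 rose and 3 fell. In this comparison 31.1% of all genes changed, and 54.7% of those at a level of at least 5. The median change of the 7 was -0.174, against -0.00569 for all genes and -0.0576 for those at a level of at least 5. With erastin alone none of the 7 passed in limma, beside 8.35% of all genes and 15.2% of those at a level of at least 5. Of the 7, 2 had an unadjusted p under 0.05 in limma, beside 4846 of all 22392 genes. EEF1A2, an elongation factor that delivers tRNA to the ribosome and is best known from muscle and neurons, averaged 9.92 ± 0.0945 with erastin plus tubacin and 9.08 ± 0.123 in the control (SD, n = 3 each), and rose by 0.84 (adjusted p = 2.79e-05 in limma). EEF2K, the kinase that inhibits eEF2, averaged 7.07 ± 0.095 with erastin plus tubacin and 7.58 ± 0.109 in the control, and fell by 0.51 (adjusted p = 0.00284), while its substrate EEF2 rose by 0.21 (adjusted p = 0.0345). EEF1D fell by 0.47 and the termination factor GSPT1 by 0.21 (adjusted p = 0.0243 and 0.0298). The level of EEF1D was low, with means of 4.45 with erastin plus tubacin and 4.92 in the control.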
